A study of Mus musculus with 2 samples.

Results

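Sprr1a and Gal positive spots were 350 of the 4017 spots under tissue in section 2 of a spatial transcriptomic study of mouse cerebellum, or 8.71% of them, and of 7423 spots in both sections. A spot is a small round region of the capture array that can hold several cells of different types or parts of cells. Members were the spots with at least 2000 unique molecular identifiers (UMIs, counts of captured probe molecules) in which Sprr1a and Gal together reached 500 counts per 1000000 UMIs of that spot (CPM). They were compared with 575 spots around them that held less than 50 CPM of Sprr1a and Gal, at least 500 CPM of the neuronal gene Snap25, at least 2000 UMIs, and lay within 5 hexagonal array steps of a member. A step is the distance from a spot to its neighbor.

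The study transplanted mouse breast tumor organoids into the cerebellum of syngeneic, immunocompetent B6 mice and profiled 1 section from each of 2 mice. The organoids carried HP, activating mutations of HER2 and PIK3CA switched on by adenoviral Cre in the mammary gland, with a human HER2 transgene under an actin promoter behind a conditional stop element, and were injected into the cerebellum on one side. The labels name the organoid of section 1 HP-F1 and that of section 2 HP-B6, give no treatment to either, and state no age, and neither section is from a brain without a tumor or an injection. Both were formalin-fixed, paraffin-embedded sections measured with a probe panel for the mouse transcriptome.

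Sprr1a encodes a small proline-rich protein known from the cornified envelope of squamous epithelium, and neurons switch it on after axon injury. Gal encodes the neuropeptide galanin, which is made by some brainstem and hypothalamic neurons and by neurons whose axon was cut. The transcription factors Atf3, Jun and Sox11, the membrane protease Ecel1 and the growth cone protein Gap43 belong to the same set of genes that injured peripheral and brainstem neurons use.

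The promoters of Sprr1a and Gal are shown because the sum of these 2 genes chose the spots, and 312 of the 350 members held a UMI of both. RefSeq promoters of the GRCm38.p6 build, from 250 bases before to 50 bases after the transcription start, were searched on both strands for the AP-1 motif TGACTCA, which reads TGAGTCA on the other strand, and for the cyclic AMP response element TGACGTCA, and the letters of these motifs do not overlap each other. AP-1 is the site of Jun, Fos and Atf3 family dimers. The Sprr1a promoter is at chr3:92485832-92486131 on the minus strand and that of Gal at chr19:3414495-3414794 on the minus strand, and capitals mark the matches.
Sprr1a: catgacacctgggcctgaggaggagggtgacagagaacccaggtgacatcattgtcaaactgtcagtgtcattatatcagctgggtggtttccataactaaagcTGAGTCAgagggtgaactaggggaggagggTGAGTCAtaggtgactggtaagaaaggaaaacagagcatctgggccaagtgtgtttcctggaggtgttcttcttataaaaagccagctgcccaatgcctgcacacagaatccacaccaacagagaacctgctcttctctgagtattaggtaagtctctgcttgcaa
Gal: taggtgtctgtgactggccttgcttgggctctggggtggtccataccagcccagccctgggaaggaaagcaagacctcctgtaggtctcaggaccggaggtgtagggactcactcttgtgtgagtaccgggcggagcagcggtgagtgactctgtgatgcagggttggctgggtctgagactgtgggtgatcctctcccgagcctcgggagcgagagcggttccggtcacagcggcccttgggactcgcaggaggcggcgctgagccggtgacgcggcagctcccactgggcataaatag
The Sprr1a promoter held 2 matches to AP-1, which began 146 and 116 bases before the start, and no cyclic AMP response element. The Gal promoter held neither motif. Of 32851 promoters of the same length, 5.2% held an AP-1 match, 0.222% held at least 2, and 1.79% held a cyclic AMP response element. Promoters were searched for 13 of the 15 genes with the highest ratios described below, and none of the 13 held either motif. Nxph3 and Neto1 were not searched.

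The label held for most members. A UMI of both genes was present in 312 of the 350 members, while 37 had no Gal and 1 had no Sprr1a. Per member, Sprr1a ranged from 0 to 5095 CPM with a median of 849.8, and Gal from 0 to 5928 CPM with a median of 464.4. The members held 4968 of the 6892 Sprr1a UMIs of the section (72.1%) and 3244 of its 3860 Gal UMIs (84.0%), and 6.27% of all its UMIs. Summed over members, Sprr1a stood at 1103 CPM and Gal at 720.0 CPM, against 1.27 CPM (8 UMIs) and 1.11 CPM (7 UMIs) in the comparison spots. These values chose the spots and are given as a description.

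The threshold cut a continuous range. Just inside it were members of 500.4, 501.3 and 504.2 CPM, with 11, 2 and 9 UMIs of the 2 genes. Just outside it were spots of 499.9, 498.3 and 490.9 CPM, with 7, 6 and 5 UMIs. Of the spots with at least 2000 UMIs, 802 lay between 50 and 500 CPM and 2750 below 50 CPM.

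The section held 71878333 UMIs, and section 1 held 63986887 over 3406 spots. Members had a median of 11264.5 UMIs per spot (2235 to 41228) and comparison spots 8965 (2000 to 66754). Both sections lay on arrays of one design, and 3096 spot barcodes occurred in both sections, all at the same array position, as barcodes here mark positions and not cells. Spots in the last array column, 127, had a median of 20814 UMIs against 7348 in column 125, and 17 members lay in columns 126 and 127. Without those 2 columns, 151 genes (1.02%) were at least 2-fold higher in members and 1042 (7.02%) at least 2-fold lower in the comparison described below. Section 1 differed in its tumor markers, as none of its spots reached 2000 CPM of the epithelial genes Epcam and Krt7 together while 921 spots of section 2 did.

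Most members lay away from the epithelium-rich tissue. Members touching each other formed 33 patches, of which the 5 largest held 307 members and are called A to E here by size. The other 43 members lay in 2 patches of 3 or 4 spots, 10 pairs and 16 single spots. Patches A and B together held 74.3% of members. Patch A, 215 spots in array rows 24 to 47 and columns 93 to 127, reached the last column, so tissue beyond it was not measured. It lay 12 to 25 steps from the nearest spot with at least 2000 CPM of Epcam and Krt7, with a median of 20. Patch B, 45 spots in rows 14 to 21 and columns 97 to 118, lay 5 to 13 steps away. Patch C, 21 spots in rows 36 to 41 and columns 47 to 56, lay 0 to 5 steps away, and patch D, 15 spots in rows 17 to 24 and columns 56 to 60, lay 0 to 2 steps away. Patch E, 11 spots in rows 50 to 55 and columns 58 to 63, lay 12 to 17 steps away. Over all members the median was 18 steps, with a range of 0 to 25.

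**Figure D1:**
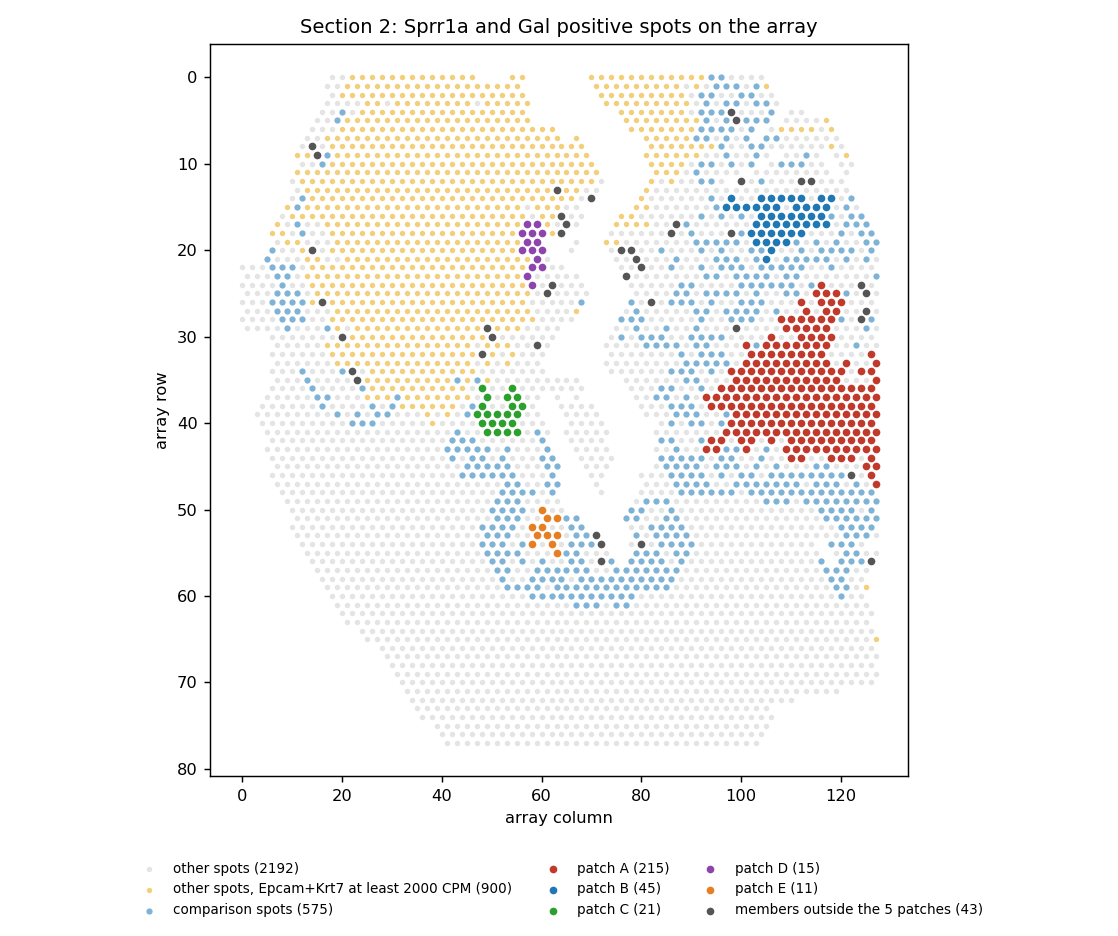
Spots of section 2 by array column and array row, with row 0 at the top. Members are colored by patch, comparison spots are light blue, and spots with at least 2000 CPM of Epcam and Krt7 that belong to neither group are yellow. Patches A (215 members) and B (45) lie on the right, C (21) and D (15) at the border of the yellow area, and E (11) below.

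Most members held neuronal RNA. Snap25, a synaptic protein of neurons, reached 500 CPM in 319 of 350 members, with a median of 2469 CPM, and 8 members were epithelium-rich. Of the 3902 spots of the section with at least 2000 UMIs, 2547 reached 500 CPM of Snap25. The 31 members below 500 CPM of Snap25 included 14 of the 15 spots of patch D, where its median was 304.2 CPM. Markers of cerebellar cortex (Calb1, Car8, Pcp2, Gabra6, Cbln1 and Cbln3, genes of Purkinje cells and granule neurons) reached 500 CPM together in 38 of 350 members and in 224 of 575 comparison spots. As a spot pools its cells, fewer cells of a type and less RNA per cell cannot be told apart.

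The balance of the 2 genes differed between patches. Sprr1a made up 61.0% of the summed UMIs of both genes in patch A, 47.9% in B, 50.5% in C, 84.2% in D and 79.9% in E. In patch A, Sprr1a stood at 1373 CPM and Gal at 877.8 CPM, and in patch B they stood at 1200 and 1307 CPM. Patch D had 830.3 CPM of Sprr1a and 156.0 CPM of Gal, and patch E had 655.6 and 165.3 CPM. The highest member, at 10392 CPM of both genes, was in patch B. Across members the Spearman correlation of the CPM values of the 2 genes was 0.41 over all 350, 0.48 in patch A and 0.52 in patch B, while patches C, D and E gave -0.00065, -0.029 and -0.42 over 21, 15 and 11 spots. These are descriptions over neighboring spots of 1 section that share a depth and were chosen on the sum of both genes.

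**Figure D2:**
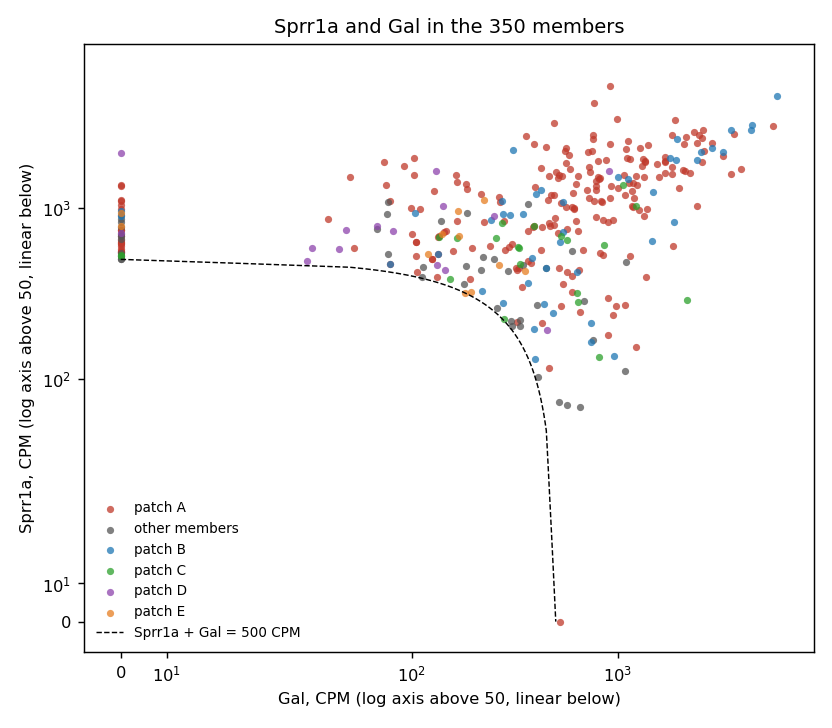
Sprr1a against Gal in each of the 350 members, in CPM, colored by patch, on axes that are logarithmic above 50 CPM and linear below, with the line where both sum to 500 CPM. Spots of patches A and B spread to high levels of both genes, and the 37 members without a Gal UMI stand at the left edge.

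Atf3, Ecel1 and Sox11, genes of injured neurons, were higher in members than in comparison spots, and genes of cerebellar cortex were lower where cortex-rich spots were kept in the comparison. Of 15016 genes with at least 20 UMIs over both groups, 159 (1.06%) were at least 2-fold higher in members and 1084 (7.22%) at least 2-fold lower, with a median log2 ratio over all genes of -0.14. A ratio here is the CPM of the summed UMIs in members over that in comparison spots. Each group came from 1 section, so no test was possible, and the 95% intervals are exact binomial or Poisson intervals that cover counting error only.

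Genes with at least 100 UMIs and a UMI in at least 50% of the spots of the higher group were ranked by ratio, Sprr1a and Gal left out. Atf3, a stress-induced transcription factor of injured neurons, had the highest ratio among them. It stood at 174.0 CPM (interval 162 to 187) in members and 34.1 CPM (29.7 to 39.0) in comparison spots, a ratio of 5.11 (4.38 to 5.97). Single members ranged from 0 to 1116 CPM with a median of 118.6, and single comparison spots from 0 to 447.6 CPM with a median of 0. The groups overlapped, as 99 members had no Atf3 UMI and 133 members (38.0%) exceeded the 95th percentile of the comparison spots. After each spot was thinned to 2000 UMIs, 24.9% of members and 6.09% of comparison spots kept a UMI of Atf3, against 71.7% and 24.0% before.

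Ecel1, a neuronal membrane protease known from damaged nerves, followed with 138.7 against 28.2 CPM, a ratio of 4.92 (4.16 to 5.85). Adcyap1, which encodes the neuropeptide PACAP, stood at 123.4 against 30.9 CPM, a ratio of 3.99 (3.39 to 4.73). Sox11, a transcription factor of growing neurons, stood at 90.8 against 26.1 CPM, a ratio of 3.48 (2.89 to 4.19). In all 3 the median comparison spot had no UMI, while the median member had 71.3, 33.4 and 55.8 CPM. Rgs4, a brake on G protein signaling, was found in 92.6% of members and 61.2% of comparison spots, at 524.7 against 122.8 CPM, a ratio of 4.27 (3.94 to 4.64).

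The other genes among the 15 highest ratios were of several kinds. Slc17a7, the vesicular glutamate transporter VGLUT1, had a ratio of 2.82 (2.62 to 3.03), from 76.0% of members and 41.2% of comparison spots with a UMI. Sncg, which encodes gamma-synuclein, had a ratio of 3.55, as had Nxph3, a secreted ligand of neurexins. Cyp26b1, an enzyme that breaks down retinoic acid, had a ratio of 3.85, and the copine Cpne9 one of 3.91. Gm2115, a predicted gene, reached 3.05, and Hsd17b7, an enzyme of cholesterol synthesis, 2.87. Mrap2, an accessory protein of melanocortin receptors, reached 2.84, Neto1, an auxiliary subunit of glutamate receptors, 2.73, and the secreted protein Crtac1 2.58. Many of these ratios rested on patch A. Without it, the 135 other members gave at least 2-fold for 5 of the 15 genes, Atf3, Ecel1, Rgs4, Cyp26b1 and Sox11. A further 7 lay above 1 but below 2-fold, from a log2 ratio of 0.031 for Cpne9 to 0.97 for Adcyap1. The other 3 turned, with log2 ratios of -0.58 for Slc17a7, -0.30 for Mrap2 and -0.30 for Crtac1.

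The 10 lowest ratios were led by Itpr1, the calcium release channel abundant in Purkinje cells, at 78.6 against 359.3 CPM, a ratio of 0.22 (0.19 to 0.24). Cbln1, a synapse organizer made by granule neurons, had a ratio of 0.25, the glutamate receptor subunit Gria1 one of 0.27 and the adenylyl cyclase Adcy1 one of 0.33. Rnf112, Gas7, Chn2, Gng13, A2m and Fam107a lay between 0.25 and 0.37. Cortex markers were more frequent in the comparison spots, so the ratios were also taken without them. Without the comparison spots that held at least 500 CPM of the cortex markers, 351 spots remained, 245 genes (1.81%) were at least 2-fold higher and 348 (2.57%) at least 2-fold lower, and Itpr1 had a ratio of 1.41 and Cbln1 one of 1.19. Gria1, at 0.47, was the only one of the 10 still past 2-fold. Of the 15 highest, Atf3 then had a ratio of 5.48, Sox11 3.73, Rgs4 3.21, Ecel1 3.12 and Slc17a7 5.76, while Mrap2 (1.89), Neto1 (1.85) and Crtac1 (1.56) fell short of 2-fold.

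**Figure D3:**
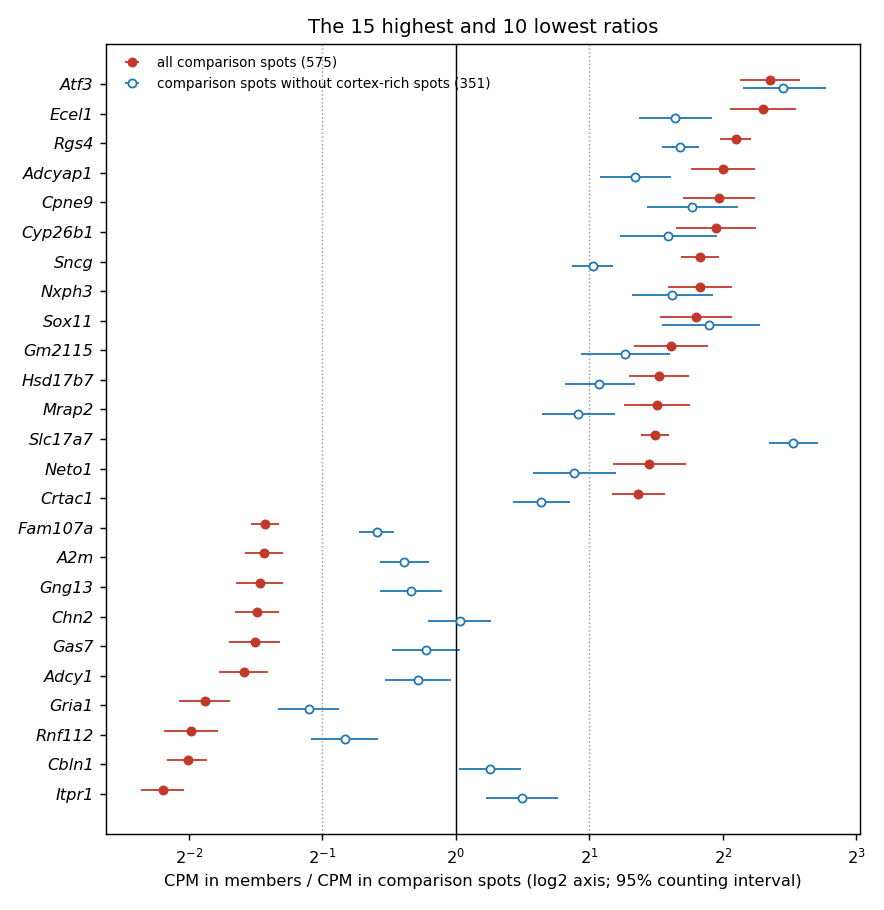
Ratio of the CPM in members to that in comparison spots for the 15 highest and 10 lowest genes, on a log2 axis with 95% counting intervals, against all 575 comparison spots (filled) and against the 351 that are not rich in cortex markers (open). Atf3 and Sox11 differ little between both, Slc17a7 is higher against the open set, and Itpr1, Cbln1 and Chn2 cross 1.

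All 40 genes of the injury and regeneration list were measured. Of these, 8 were at least 2-fold higher in members (Atf3, Ecel1, Crh, Adcyap1, Sox11, Fst, Bdnf and Sema6a), 1 was at least 2-fold lower (Ngfr) and 31 were neither, against 1.06% and 7.22% of all genes. The list's median log2 ratio was 0.34 (median of the gene intervals 0.05 to 0.65) beside -0.14 for all genes. Among regulators, Jun stood at 261.2 against 148.6 CPM, a ratio of 1.76 (1.61 to 1.92), while Stat3 (1.05), Smad1 (1.08) and Klf6 (1.2) were close to 1. Among secreted factors, Crh, the corticotropin releasing hormone, had a ratio of 4.14 (2.76 to 6.34) from 98 and 33 UMIs, the activin antagonist Fst one of 2.28 and the neurotrophin Bdnf one of 2.25. The guidance molecule Sema6a had a ratio of 2.13. Among growth cone proteins, Gap43 stood at 740.6 against 469.2 CPM, a ratio of 1.58, Stmn4 at 1.45 and Basp1 at 1.08. The neurotrophin receptor Ngfr stood at 8.21 against 45.4 CPM, a ratio of 0.18, which became 1.06 without the cortex-rich comparison spots. Against those, 9 of the 40 genes were at least 2-fold higher and none lower, with a median log2 ratio of 0.40. Without patch A the list's median log2 ratio was 0.68, and of the 8 genes 4, Atf3, Ecel1, Sox11 and Fst, were still at least 2-fold higher. The log2 ratios of Adcyap1 (0.97), Sema6a (0.90) and Bdnf (0.77) were then short of 2-fold, and that of Crh was -0.68.

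None of the listed integrated stress response or immediate early genes was at least 2-fold higher over all members. Of 12 genes of the integrated stress response, none passed 2-fold in either direction, with a median log2 ratio of 0.11. The highest was Asns, asparagine synthetase, with a ratio of 1.88, followed by Ddit3, the transcription factor CHOP, with 1.48. Of 14 immediate early genes, none was at least 2-fold higher and 1, Npas4, was at least 2-fold lower, at 6 against 27 UMIs. The share of all genes at least 2-fold lower was 7.22%. Fos had a ratio of 1.09. Without the cortex-rich comparison spots the median log2 ratio of the integrated stress response was 0.44, with 10 of 12 genes above 1 and none past 2-fold. The medians were then 0.40 for the injury list, 0.19 for the immediate early genes and -0.05 for all genes.

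Axon genes were mostly higher in members. Of 14 tested genes of the axon and neurofilament cytoskeleton, 13 had a ratio above 1 and 3 were at least 2-fold higher. Their median log2 ratio was 0.66, beside -0.14 for all genes, of which 1.06% were at least 2-fold higher. Tubb3, the neuronal beta tubulin, stood at 859.8 against 343.7 CPM, a ratio of 2.50, the growth-associated Stmn2 had one of 2.41 and the microtubule protein Map1b one of 2.00. Prph, peripherin, was the exception with a ratio of 0.56. Of 12 general synaptic and neuronal genes, Uchl1 alone was at least 2-fold higher, with a ratio of 2.25, and Snap25 itself, which the rule asked of comparison spots, had one of 1.49. Without the cortex-rich comparison spots the median of the axon list was 0.32, beside -0.05 for all genes. Stmn2 alone was then past 2-fold higher, with a ratio of 2.1, while Prph was past 2-fold lower, with 0.29. The shares of all genes were then 1.81% higher and 2.57% lower.

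The rest of the galanin and Sprr families was nearly silent. Members held 7 UMIs of the galanin receptor Galr1, 2 of Galr2 and 10 of Galr3, against 10, 3 and 18 in comparison spots. Of the 11 genes of the Sprr family list in the files, which leaves out Sprr1a, members held between 2 and 7 UMIs each. Sprr1b, the closest relative by name, had 3 UMIs in members and 8 in comparison spots. The squamous epithelium list, with keratins such as Krt6a and Krt17, summed to 148.7 CPM in members and 154.0 CPM in comparison spots (99.2 CPM without the cortex-rich ones), and 1 of its 10 tested genes was at least 2-fold higher, Krt16, from 16 and 11 UMIs. Of the 12 tumor epithelium genes none passed 2-fold, and their sum was 846.5 against 777.0 CPM (528.6 CPM without the cortex-rich ones). Single members ranged from 0 to 8009 CPM of that sum and comparison spots from 0 to 7636 CPM.

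Over all members, most other neuropeptides had ratios below 1. Of 15 tested neuropeptides, 3 had a ratio above 1, with a median log2 ratio of -0.29 beside -0.14 for all genes. The median of the gene intervals was -1.40 to 0.49. Adcyap1 and Crh were at least 2-fold higher, while 3 were at least 2-fold lower, namely Cck at 0.16, Pdyn at 0.46 and Calca at 0.46. The shares of all genes were 1.06% higher and 7.22% lower. Without the cortex-rich comparison spots, 3 of 12 tested were above 1, with a median log2 ratio of -0.49. Against their own comparison spots, 3 of 7 tested neuropeptides were above 1 in patch A and 3 of 6 in B, and none of 3 in C or E. Npy, which neurons can also switch on after injury, had a ratio of 0.59 over all members, but 2.25 without the cortex-rich comparison spots, and above 1 in patches A and B. Patch A had a ratio of 3.34 and patch B one of 12.2 (3.61 to 64.0), from 20 and 3 UMIs. Patch C had 3 Npy UMIs against 47 in its comparison spots, and patch E had 0 against 62.

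Genes of neuron types differed in both directions. Of all genes, 1.06% were at least 2-fold higher and 7.22% lower. Without the cortex-rich comparison spots these shares were 1.81% and 2.57%. Of 12 tested Hox genes, which mark hindbrain and spinal cord levels, 8 were at least 2-fold higher and none lower, with a median log2 ratio of 1.60. Patch A alone had enough Hox UMIs to test single genes, as described below. Hoxa4 stood at 31.3 against 3.34 CPM, a ratio of 9.36 (5.89 to 15.6), and Hoxb5 had one of 6.46. Of 6 genes of GABA and glycine neurons, 3 were at least 2-fold lower, none was higher and 3 were neither, with Gad1 at 0.28, Gad2 at 0.40 and the vesicular transporter Slc32a1 at 0.42, and without the cortex-rich comparison spots these 3 ratios were 0.30, 0.32 and 0.35. The glycine transporter Slc6a5 had a ratio of 0.51, while the glycine receptor subunit Glra1 was above 1, at 1.88. Slc17a6, the glutamate transporter VGLUT2, stood at 171.8 against 90.8 CPM, a ratio of 1.89. Of 7 tested motor neuron genes, 4 were at least 2-fold lower, and of 6 tested noradrenergic genes, 3, with Th at 0.35 and Slc18a2 at 0.44. Chat, the acetylcholine enzyme of motor neurons, had 12 UMIs in all members. The motor neuron genes summed to 48.6 CPM over all members, against 95.6 CPM in comparison spots. In patch B their sum was 335.2 CPM, against 637.6 CPM in its own comparison spots, and in patches A, C and E it was 21.3, 15.9 and 11.4 CPM. Of 10 Purkinje cell genes, 9 were at least 2-fold lower, and of 9 granule neuron genes, 7. Without the cortex-rich comparison spots none of either list was at least 2-fold lower, and 1 Purkinje cell gene and 2 granule neuron genes were at least 2-fold higher. The summed Purkinje cell genes had a median of 909.8 CPM over members (0 to 9148) and 684.2 CPM over comparison spots (0 to 19561). The summed granule neuron genes had medians of 620.4 CPM (0 to 4751) and 337.9 CPM (0 to 6575), so that both medians were higher in members while both pooled sums were lower. By single gene, the median was 593.1 against 244.0 CPM for Pcp4 and 402.7 against 0 for Slc17a7. It was 63.7 against 53.4 CPM for Itpr1 and 55.8 against 0 for Zic1. Calb1, Pcp2, Car8 and Gabra6 had medians of 0 in both groups, and Cbln1 had 0 against 110.0 CPM.

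Against all comparison spots, few of the listed glial and macrophage genes passed 2-fold. Of 10 oligodendrocyte genes none passed 2-fold, and their median log2 ratio was 0.09. Of 10 astrocyte genes 1 was at least 2-fold lower, beside 7.22% of all genes, and of 10 reactive astrocyte genes none passed 2-fold. None of the 9 microglia genes passed 2-fold, and Aif1 had a ratio of 0.62 and P2ry12 one of 0.65. Only 1 of the 9 had a ratio above 1, and their median log2 ratio was -0.60, beside -0.14 for all genes. Single patches against their own comparison spots differed more. Of reactive astrocyte genes, 4 of 9 were at least 2-fold lower in patch A and 3 of 10 in B. In patch E 3 of 9 were higher, and in C 1 of 10 was higher and 1 lower. Of microglia genes, 2 of 9 were lower in A, and 1 of 9, 1 of 7 and 2 of 8 higher in B, C and E. Of oligodendrocyte genes 4 of 10 were higher in C, and none passed 2-fold in A, B or E. Shares over all genes by patch are given below. The 12 macrophage genes, none past 2-fold, summed to 5637 CPM in members and 3747 CPM in comparison spots, with medians per spot of 2056 (335.2 to 45143) and 1478 (0 to 36194). Spp1, which macrophages and some neurons both make, gave most of that sum, at 3260 against 1707 CPM, a ratio of 1.91. Without the cortex-rich comparison spots, 3 of the 12 macrophage genes were at least 2-fold higher. Their sum in the comparison spots was then 2977 CPM, a ratio of 1.89. In patch A alone the macrophage sum was 1980 against 1044 CPM, and 1 of 8 tested genes was at least 2-fold higher and 3 lower. The part of macrophages in the ratios was not tested.

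The other cell lists held few genes past 2-fold higher. Of 10 tested genes of excitatory projection neurons 1, the sodium channel subunit Scn4b, was at least 2-fold higher, and of 3 tested inferior olive genes Crh was higher and 2 were lower. Of 3 tested serotonergic genes 1 was at least 2-fold lower, as were 2 of 3 neutrophil genes, 1 of 5 T cell genes and 1 of 8 fibroblast genes. Over all genes, 1.06% were at least 2-fold higher and 7.22% lower, and lists this short cannot be told from those shares by 1 gene. None of 10 endothelial and mural genes passed 2-fold, while 4 of 9 ependyma and choroid plexus genes and 3 of 3 erythrocyte genes were at least 2-fold lower.

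Each of 4 patches could be set against its own comparison spots. Patch A had 184 of these, B 90, C 35 and E 84, of which 7, 8, 33 and 77 were rich in cortex markers, while patch D had none within 5 steps. In patch A, 286 genes (2.39%) were at least 2-fold higher and 745 (6.22%) lower, and in patch B 159 (1.74%) and 450 (4.91%). In patch C, 527 (6.67%) were higher and 1092 (13.8%) lower, and in patch E 414 (4.17%) and 1571 (15.8%). Of 7519 genes tested in all 4 patches, 3 besides Sprr1a and Gal (0.0399%) were at least 2-fold higher in each, namely Atf3, Nxph3 and the tubulin Tubb6. Atf3 had a ratio of 11.8 (7.24 to 20.4) in patch A, 5.30 (3.46 to 8.32) in B, 12.8 (5.45 to 36.8) in C and 7.10 (4.43 to 11.4) in E. Nxph3 had ratios of 4.51, 4.32, 4.27 and 2.24. Of 27 injury list genes tested in all 4 patches, 11 had a ratio above 1 in each, among them Jun, Sox11, Ecel1 and Gap43, beside 8.7% of all genes.

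**Figure D4:**
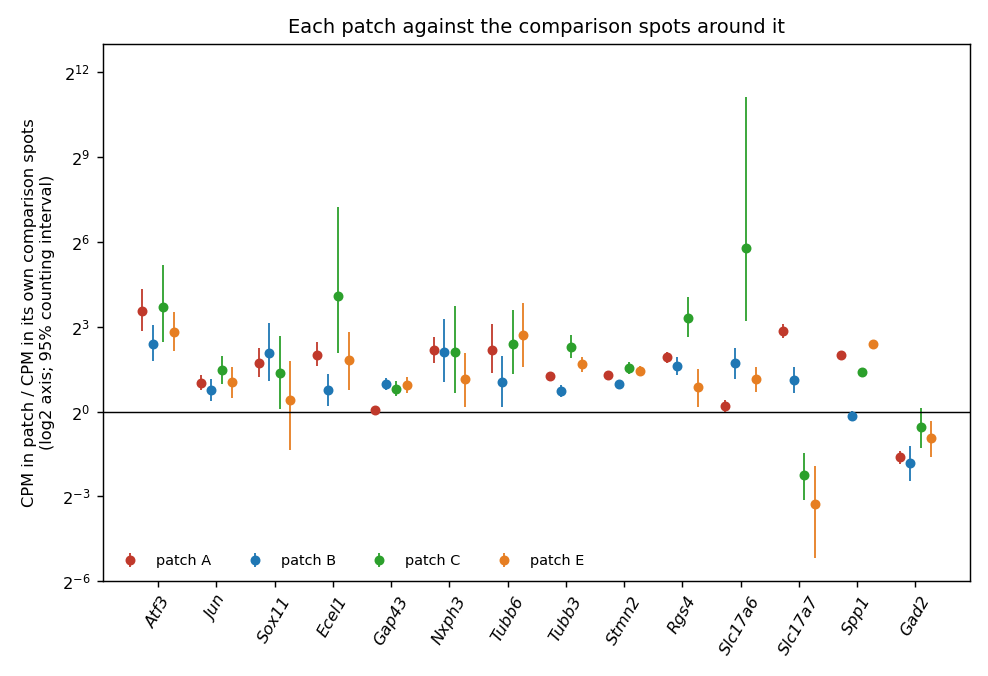
Ratio of the CPM in patches A, B, C and E to that in the comparison spots around each, on a log2 axis with 95% counting intervals. Atf3, Nxph3 and Tubb6 lie above 2 in all 4 patches, while Slc17a7 is above 1 in A and B and below 1 in C and E.

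The highest ratios of patch A, by the same rule as for all members, were those of Atf3, Slc17a7 at 7.24 (6.13 to 8.61), the giant scaffold protein Ahnak2 at 4.97, Nxph3, Zfp385b at 4.21 and Ecel1 at 4.04. Hox genes were higher in it, 7 of 10 tested by at least 2-fold, with Hoxa4 at 8.32 (4.10 to 19.7), while patches B, C and E had too few Hox UMIs to test any. The summed Hox genes had a ratio of 2.80 (2.25 to 3.51) in patch A and 1.36 (0.76 to 2.40) in B. They had 0.98 (0.44 to 2.08) in C and 0.45 (0.05 to 1.79) in E. All 215 spots of patch A reached 500 CPM of Snap25. The patch was not even from side to side. In the 73 spots of columns 117 to 127, Ecel1 stood at 324.2 CPM, Adcyap1 at 349.7 and Sox11 at 157.0, against 71.4, 75.4 and 57.5 CPM in the 47 spots of columns 93 to 104. Sncg went the other way, with 143.8 CPM in the former and 803.3 in the latter, as did the neurofilament gene Nefm with 897.2 and 2350. Gfap, the astrocyte filament gene, stood at 5450 CPM in the former and 1553 in the latter. Sprr1a stood at 1376 (1304 to 1452) and 1414 (1312 to 1522) CPM, while Gal had 544.4 and 956.0 CPM. The former band holds the deep last column, 127. Its 8 members there had a median of 39544.5 UMIs, against 11189 over the band, and 45.3 to 557.9 CPM of Gal. The band values were not recomputed without the edge columns.

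The same rule, with its minimum of 100 UMIs in the higher group, ranked the genes of patches B, C and E. It left out genes of fewer UMIs that had higher ratios, such as Atf3 in patch B, at 5.30 from 87 UMIs. In this ranking patch B was led by Rgs4, with a ratio of 3.07, Tsc22d1 at 2.45, the neurite growth factor Nrn1 at 2.40, Stac2 at 2.21 and Pcp4 at 2.12. Sox11 had a ratio of 4.22 in it and Slc17a6 one of 3.25, and Ecel1 one of 1.70. Patch C was led by the interferon-induced gene Ifit2, at 17.1 (9.43 to 34.0) from 120 and 12 UMIs, followed by Cabp7 at 15.2, Rgs4 at 9.93, Chil1 at 8.92, Nefh at 6.18 and Igfbp2 at 5.05. Ecel1 had a ratio of 17.1 (4.15 to 150.9) there, from 20 and 2 UMIs, and Slc17a6 one of 54.7 (9.14 to 2227) from 32 and 1, against comparison spots of which 33 of 35 were cortex-rich. The macrophage genes of patch C summed to 7743 CPM against 3689, and its tumor epithelium genes to 1547 against 460.6 CPM. Patch E was led by Chil1, an inflammation-induced secreted lectin, at 8.71, Lcn2 at 5.94, Igfbp2 at 5.92, Spp1 at 5.24, the neuropeptide precursor Vgf at 3.89 and Nefm at 3.42. Its macrophage genes summed to 6134 against 1862 CPM.

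Patch D, next to the epithelium-rich tissue, had the lowest median of Snap25 of the 5 large patches. Its levels were 317.6 CPM of Snap25, 1031 of Krt7, 534.9 of Epcam, 9055 of Spp1, 1942 of the macrophage gene Gpnmb and 922.2 of Arg1. All 15 of its spots had a UMI of Atf3, at 289.8 CPM (237 to 351), and of Ecel1, at 170.0 CPM, and Sox11 stood at 161.6 CPM. The spots of patch D had a median of 24575 UMIs, against 11264.5 over all members, and depth raises the share of spots with a UMI. Ifit2 stood at 239.6 CPM in it. Krt14 and Krt5, which are on the tumor epithelium list, stood at 571.2 and 103.1 CPM. Of the squamous epithelium list, Krt17 stood at 242.4 CPM, Krt6a at 58.5 and the desmosome gene Dsg3 at 39.0. The rest of that list was low, with 2 to 7 UMIs each of Krt13, Trp63, Sfn, Krt16, Dsc3 and Krt10. Krt6b, Krt1, Krt4, Sprr1b and Ivl had no UMI, where 3 UMIs would be 8.36 CPM.

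Neuronal spots were also classed by their level of Sprr1a and Gal, as a description. These values chose the groups, so the classes of at least 500 CPM hold members only and the lowest class holds all comparison spots. Over 2547 neuronal spots, those with at least 2000 UMIs and 500 CPM of Snap25, Atf3 stood at 19.0 CPM in the 1729 spots below 50 CPM of Sprr1a and Gal and at 33.3 in the 247 spots from 50 to 150 CPM. It reached 72.8 CPM from 150 to 500, 125.7 from 500 to 1500, 149.3 from 1500 to 3000 and 268.0 in the 58 spots above 3000 CPM. Sox11 went over the same classes from 19.8 to 118.7 CPM and Rgs4 from 85.4 to 1116 CPM, whereas Adcyap1 and Ecel1 were highest from 1500 to 3000, at 242.8 and 168.5 CPM. Gfap stood at 4440 CPM in the lowest class and 2675 CPM in the highest. Snap25 itself went from 1855 to 3169 CPM between the same classes. Among neuronal spots that were not members, Atf3 stood at 71.5 CPM 1 step from a member, 44.9 at 2 steps, 33.4 at 4 to 5 steps and 9.19 at 11 steps or more. These spots include those from 50 to 500 CPM of Sprr1a and Gal. Between 1 step and 11 steps or more, Sprr1a went from 136.2 to 4.40 CPM and Gal from 47.8 to 4.10 CPM. Tissue changed with distance too. The cortex markers had a per-spot median of 329.9 CPM in comparison spots. That median was 3147 CPM in the 1154 neuronal spots below 50 CPM of Sprr1a and Gal at 6 or more steps. Distance, the level of Sprr1a and Gal, and tissue type cannot be told apart here.

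**Figure D5:**
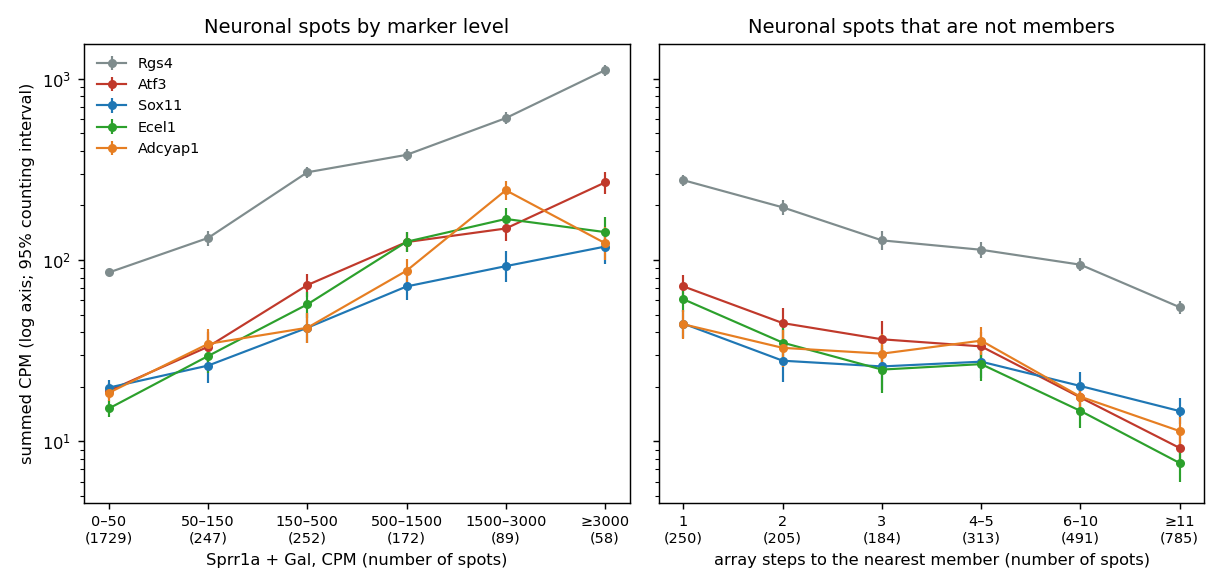
Summed CPM of 5 genes in neuronal spots, on a log axis with 95% counting intervals, by class of Sprr1a and Gal level (left, all neuronal spots) and by array steps to the nearest member (right, non-members). Atf3 goes from 19.0 to 268.0 CPM on the left and from 71.5 to 9.19 CPM on the right. Neuronal spots further away were richer in cortex markers and held less Sprr1a and Gal.

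The genes most like the 2 markers were chosen by Spearman correlation of CPM over the 2547 neuronal spots, among 12798 genes found in at least 5% of them. For Sprr1a these were Tubb3 (0.47), Uchl1 (0.46), Rgs4 (0.45), Atf3 (0.44) and Tuba1a (0.44), and for Gal they were Uchl1 (0.37), Tubb3 (0.37), Stmn2 (0.37), Rgs4 (0.37) and Atf3 (0.36). Sprr1a and Gal correlated at 0.61 with each other. The spots share 1 library and differ in depth and in neuron content.

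By the same rule section 1 had 7 members among its 3406 spots. They carried 4 to 16 UMIs of Gal and 0 to 3 of Sprr1a each, and 4 of the 7 reached 500 CPM of Snap25. Against 147 comparison spots there, 1194 of 11141 tested genes (10.7%) were at least 2-fold higher and 1511 (13.6%) at least 2-fold lower. Its neuronal spots, 2101 in number, stood at 4.75 CPM of Sprr1a (3.84 to 5.81) and 16 CPM of Gal, against 173 and 113.8 CPM in section 2. Atf3 stood at 19.4 CPM in the neuronal spots of section 1 and 43.0 CPM in those of section 2. With 1 section of each organoid, the organoid, the mouse, the place of the section in the brain and the library cannot be told apart.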

How the data were processed

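Visium CytAssist spatial transcriptomics was measured on 2 formalin-fixed, paraffin-embedded sections. The deposited values are UMI counts per gene and spot, made by the authors with Space Ranger 2.1.1 against mm10, per the file headers and the submitters' processing notes, for spots under tissue only. The 2 sections were not pooled and no doublets were called. Everything else was computed here with Python 3.11.15, numpy 2.4.6 and scipy 1.17.1, and edgeR 4.0.16 gave TMM factors. The files list 19465 genes, and rows of the 11 symbols listed more than once were summed.

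Groups, steps and thresholds followed the rule in the opening. UMIs were summed over the spots of a group and divided by the group's total, and ratios were computed for genes with at least 20 UMIs over both groups, with a sum of 0 set at 3 UMIs. Intervals are exact (Poisson for sums, Clopper-Pearson for ratios) and cover counting error only. Spots of 1 section are not replicates, so no p-value was computed. Named were Sprr1a and Gal, the 15 highest and 10 lowest ratios among genes with at least 100 UMIs and a UMI in at least 50% of spots in the higher group, genes of the 30 lists, and the 5 genes most correlated with each marker. Other genes were named after their values were seen. The members, lists and rules were chosen with earlier results of these data known. The ratio code was tested on simulated counts with known folds in 200 genes. The study's clusters were not used here. Other settings are given in the closing section.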

Additional observations from a re-analysis of the deposited data

How the results depend on the processing

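All values here are counts or log2 ratios, recomputed under the other settings that bear on each. Gene counts had 18 settings, lists and single genes 16, comparison spots 13 and members 9. Leaving out the last 2 array columns and the cortex-rich comparison spots were chosen after seeing the data. The log2 ratio of Atf3 stayed between 1.46 and 3.55 in section 2, that of Sox11 between 1.5 and 1.98, and the injury median between 0.25 and 0.68, the highest without patch A. A threshold of 1000 CPM left 213 members and 362 comparison spots, and one of 300 CPM gave 287 higher genes. Within 2 steps there were 176 comparison spots and 503 lower genes, within 10 steps 1002 and 1782. Without asking for Snap25 there were 1019 comparison spots, 1361 higher and 3161 lower genes, with medians of 0.18 for motor and 0.25 for GABA and glycine neurons, Fst at -1.87 and Gad2 at 0.056. Without patch A, 135 members gave 365 higher genes, a noradrenergic median of 0.16, Mrap2 at -0.30, Slc17a7 at -0.58, Crtac1 at -0.30 and Crh at -0.68. Patch A alone, 215 members and 184 comparison spots, gave 286 higher genes, a granule neuron median of 0.94 and Itpr1 at 0.39. Scaling by TMM gave 244 higher genes. A minimum of 100 UMIs per gene gave 93 higher and 274 lower genes, and no minimum 435 and 2640. Without cortex-rich comparison spots, 351 spots gave 245 higher and 348 lower genes, medians of 0.038 for inferior olive neurons, 0.55 for granule neurons and 0.23 for neutrophils, Itpr1 at 0.49, Cbln1 at 0.25, Chn2 at 0.028 and Ngfr at 0.077.

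Of the 29 lists other than injury, 10 had a median past 2-fold. That number was 6 within 2 or 10 steps, without patch A, for patch A alone, without the last 2 columns and in section 1, 5 without cortex-rich comparison spots and 4 under TMM. Section 1, with 7 members, gave 1194 higher genes, and medians of 1.41 for motor, 0.49 for noradrenergic, 0.92 for inferior olive, 0.069 for Purkinje and 0.79 for granule neurons. Of single genes there, Rgs4 stood at -1.34, Cpne9 at -0.90, Cyp26b1 at -1.60, Gm2115 at -1.18, Hsd17b7 at -0.26, Mrap2 at -1.74, Crtac1 at -1.63, Uchl1 at -0.74, Tubb3 at -0.72, Stmn2 at -0.57 and Sema6a at -0.16. Itpr1 stood at 0.69, Gria1 at 0.019, Adcy1 at 0.24, Chn2 at 0.29, A2m at 0.56 and Ngfr at 0.84. These values opposed the direction in section 2, and the cause was not tested. As ratios, Atf3 (3.56, from 19 and 86 UMIs), Ecel1 (8.45, from 11 and 21), Jun (2.99) and Sox11 (5.04, from 5 and 16) were above 1 in both sections. Of the 19 Atf3 UMIs, 11 lay in a single member, and the rest in members below 500 CPM of Snap25. The members of section 1 with 1751, 2009 and 3387 CPM of Snap25 had none. No paired analysis was possible because each section is 1 sample and members and comparison spots come from the same section. Depth limits genes of few UMIs, as a spot of 2000 UMIs shows 1 UMI as 500 CPM.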
